A study of Mus musculus with 10 samples.

Results

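Bone morphogenetic proteins (BMPs) and activins are secreted dimers of the transforming growth factor beta superfamily, and this account follows 10 of their genes through mouse gastric tumours. The 10 were taken by gene symbol from a table of 56748 genes, and all 10 were found. They comprise the BMP ligand genes Bmp2, Bmp4 and Bmp7, the BMP antagonist genes Grem1 and Nog, the activin subunit genes Inhba and Inhbb, the activin antagonist gene Fst, and the BMP target genes Id1 and Id2. Bulk RNA was sequenced from 5 inflamed-type tumours and 5 desert-type tumours, with 1 library per tumour. The inflamed tumours carried the genotype Tff1-CreERT2;Apcfl/fl;Trp53fl/fl, in which the control region of Tff1, a gene of gastric surface cells, drives a tamoxifen-inducible Cre that recombines both floxed tumour suppressor genes. Desert tumours grew as orthotopic allograft models and are listed as Wild type. The sources used here do not say whether that names the host or the grafted cells, nor the strain, age and sex of any animal. Tumour type, genotype and the way a tumour was made changed together and cannot be told apart. No label says that the tumours came from separate mice, so p-values measure the spread between these samples.

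BMP dimers bind pairs of type I and type II receptors, which phosphorylate SMAD1, SMAD5 and SMAD9, and the Id genes are among the earliest genes that this signal induces. Gremlin 1 and noggin bind BMPs outside the cell and keep them from their receptors. Activin A is a dimer of the Inhba product and activin B of the Inhbb product; both signal through SMAD2 and SMAD3, and follistatin, the product of Fst, holds them in an inactive complex. In the gut, BMP signalling is known to be strongest towards the luminal surface, and Gremlin 1 is known as a product of stromal cells beneath the stem cell zone.

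The ligand genes separated the tumour types in opposite directions. Bmp2, Bmp4 and Inhba, together with the antagonist genes Grem1 and Fst and the target gene Id1, were higher in inflamed tumours, and Bmp7 and Inhbb were lower. Id2 lay between 34.6 and 60.9 FPKM (fragments scaled to gene length and library size, a level that can be compared between genes) in both types. Of the 10 members, 9 had a mean of at least 0.5 FPKM over all libraries and were tested, with 6 called higher, 2 lower and 1 not called by limma at an adjusted p under 0.05. Over all 16750 tested genes 62.2% were called, 31.0% higher and 31.2% lower, so most tested genes differed between these tumours. These were 5197 higher and 5221 lower, and after rescaling every library to the same sum (TPM) 3769 higher and 6989 lower. The groups did not overlap in 8 of the 9 tested members, against 48.9% of all tested genes, nor in Nog, which lay below the filter. A gene that is high in 1 group passes such a filter more easily. In bulk tissue, fewer cells that express a gene and less RNA per cell cannot be told apart, and this holds for every difference given here.

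The libraries held 15474313 to 15975770 reads in genes in inflamed tumours and 14148147 to 16951640 in desert tumours. The labelled tissue was checked on 9 gastric epithelial markers, of which 7 were called higher in inflamed tumours and 0 lower. Their summed level was 7775 to 42130 FPKM in inflamed tumours and 25.1 to 56.2 FPKM in desert tumours, in which Tff2, a trefoil peptide of mucous neck cells, did not exceed 0.605 FPKM. Muc6, a mucin of the gastric glands, reached at most 35.4 FPKM in desert tumours and was the largest part of their sum in 3 of the 5. The 6 pan-epithelial markers summed to 3317 to 6318 FPKM in inflamed tumours and 1523 to 2227 FPKM in desert tumours, and 4 of the 6 were called higher. Leukocyte markers, 5 of the 6 tested called higher, summed to 309 to 1584 FPKM in inflamed tumours and 20.4 to 81.7 FPKM in desert tumours. These sums were mostly Cd74, with means of 932 FPKM among inflamed and 34.1 FPKM among desert tumours. Ptprc had means of 2.51 and 0.602 FPKM. Csf1r and Itgam were called higher but overlapped between the groups, and Adgre1 was not called (limma adjusted p = 0.176). Each other marker list (fibroblast, smooth muscle, endothelial, cartilage and leukocyte) had members above 0 in both groups.

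Start-site windows, 250 bases before to 50 after the start, were matched by symbol in RefSeq (GRCm38.p6) for 5 of the 10 members. Those of Inhba and Inhbb are shown because these subunits of 1 hormone family differed in opposite directions, and that of Grem1 because the gene was nearly silent in desert tumours. They run 5′ to 3′ on the strand of the gene, at chr13:16011601-16011900 (plus), chr1:119422199-119422498 (minus) and chr2:113758599-113758898 (minus). Capitals mark the GC box GGGCGG and the TATA box core TATAAA on either strand.
Inhba: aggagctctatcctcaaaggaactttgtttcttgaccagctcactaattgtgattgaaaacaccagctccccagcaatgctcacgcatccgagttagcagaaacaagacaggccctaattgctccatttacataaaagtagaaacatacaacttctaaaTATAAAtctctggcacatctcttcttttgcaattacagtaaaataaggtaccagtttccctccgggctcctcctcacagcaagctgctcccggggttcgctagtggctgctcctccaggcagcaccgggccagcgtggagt
Inhbb: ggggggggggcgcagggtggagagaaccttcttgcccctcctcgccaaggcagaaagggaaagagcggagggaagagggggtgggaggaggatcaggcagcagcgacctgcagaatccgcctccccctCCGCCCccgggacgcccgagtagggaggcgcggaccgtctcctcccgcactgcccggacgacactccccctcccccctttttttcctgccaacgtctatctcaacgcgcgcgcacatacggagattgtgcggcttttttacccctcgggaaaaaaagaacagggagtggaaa
Grem1: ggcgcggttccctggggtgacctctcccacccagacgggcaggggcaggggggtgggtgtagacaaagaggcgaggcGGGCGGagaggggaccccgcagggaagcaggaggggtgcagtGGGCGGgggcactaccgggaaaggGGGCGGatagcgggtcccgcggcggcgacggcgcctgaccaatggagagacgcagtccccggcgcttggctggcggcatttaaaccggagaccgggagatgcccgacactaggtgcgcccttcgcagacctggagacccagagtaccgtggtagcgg

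The Inhba window held 7 CpG dinucleotides and 47.7% G and C, against 23 and 64.3% in the Inhbb window and 28 and 70.7% in the Grem1 window. The median over 32851 windows of the same length was 7 CpG dinucleotides. The TATA box core, which 13.6% of all windows hold, occurred in the Inhba window, 91 bases before the start, and in neither of the other two. GC boxes, which 35.7% of all windows hold, occurred at 3 places in the Grem1 window and at 1 in the Inhbb window. The GC-rich letters GGCGCC, bound by SMAD proteins in some BMP target genes, occurred in the Grem1 window and in 11.9% of all windows. The letters TGACG and TGANTCA, bound by cAMP and AP-1 factors and held by 20.8% and 7.81% of all windows, had no match in the 3 windows. A match is a description of these letters only, and none of the members' windows was measured for binding here.

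Among the BMP ligands, Bmp2 (ENSMUSG00000027358, chromosome 2, 133394079 to 133404805 in the deposited table, which does not use the positions of GRCm38), the product of which dimerises alone or with other BMPs, had 7.39, 9.16, 8.66, 21.8 and 11.6 FPKM in inflamed tumours 1 to 5. In desert tumours 1 to 5 it had 0.862, 0.232, 0.157, 0.104 and 0.119 FPKM. Every inflamed tumour lay above every desert tumour, inflamed tumour 4 was the highest of all, and desert tumour 1 was the highest of its group. The mean was 11.7 ± 5.83 FPKM among inflamed and 0.295 ± 0.321 FPKM among desert tumours (SD, n = 5 each), 39.8 times higher in inflamed tumours, and the log2 difference was 3.23 (SE 0.26, limma adjusted p = 1.72e-06). These differences are on the log2(FPKM + 1) scale, which understates low genes; with a pseudocount of 0.01 that of Bmp2 was 5.62.

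Bmp4 (ENSMUSG00000021835, chromosome 14, 46620977 to 46628126), a ligand closely related to Bmp2 and made in the gut mesenchyme, had 10.6, 8.61, 6.77, 8.56 and 10.1 FPKM in inflamed tumours 1 to 5, against 0.580, 2.75, 0.470, 4.70 and 0.375 FPKM in desert tumours 1 to 5. The groups came close, since the highest desert tumour reached 4.70 FPKM and the lowest inflamed tumour 6.77 FPKM. Desert tumours 2 and 4 stood above the other 3 of their group. The log2 difference was 2.08 (SE 0.37, limma adjusted p = 0.000608), from means of 8.92 ± 1.496 FPKM among inflamed and 1.77 ± 1.91 FPKM among desert tumours (SD, n = 5 each). A gene on the opposite strand overlaps Bmp4 in the table (Gm15222, at most 1.34 FPKM), and the sources used here do not say whether reads were counted by strand.

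Bmp7 (ENSMUSG00000008999, chromosome 2, 172709805 to 172782114), a ligand known for its part in kidney and eye development, ran the other way, with 11.9, 12.5, 8.64, 7.52 and 9.93 FPKM in inflamed tumours 1 to 5 and 34.3, 48.8, 67.4, 72.5 and 56.2 FPKM in desert tumours 1 to 5. The lowest desert tumour was 2.75 times the highest inflamed tumour. The mean was 10.1 ± 2.10 FPKM among inflamed and 55.9 ± 15.2 FPKM among desert tumours (SD, n = 5 each), and the log2 difference was -2.33 (SE 0.20, limma adjusted p = 3.05e-06). Of 7 cartilage markers 4 were tested, and all 4 were also lower in inflamed tumours. The 7 summed to 51.2 to 68.1 FPKM among inflamed and 363 to 566 FPKM among desert tumours. Sox9 made up most of the inflamed sum, at 49.9 to 67.15 FPKM, and was at 141.5 to 173.5 FPKM in desert tumours. Acan, Col11a1 and Matn3 lay below the filter, at no more than 0.04235, 0.546 and 0.6835 FPKM in desert tumours. Acan had the higher mean in inflamed tumours (0.0873 against 0.0227 FPKM). Desert tumour 1 had the highest cartilage sum, with Col2a1 at 163.5 FPKM and Sox9 also highest there, and the lowest Bmp7 of its group. Comp and Col9a1 were instead highest in desert tumour 3 (277 and 26.2 FPKM), where Bmp7 was at 67.4 FPKM. The part of the cartilage markers in the Bmp7 result was not tested.

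**Figure D1:**
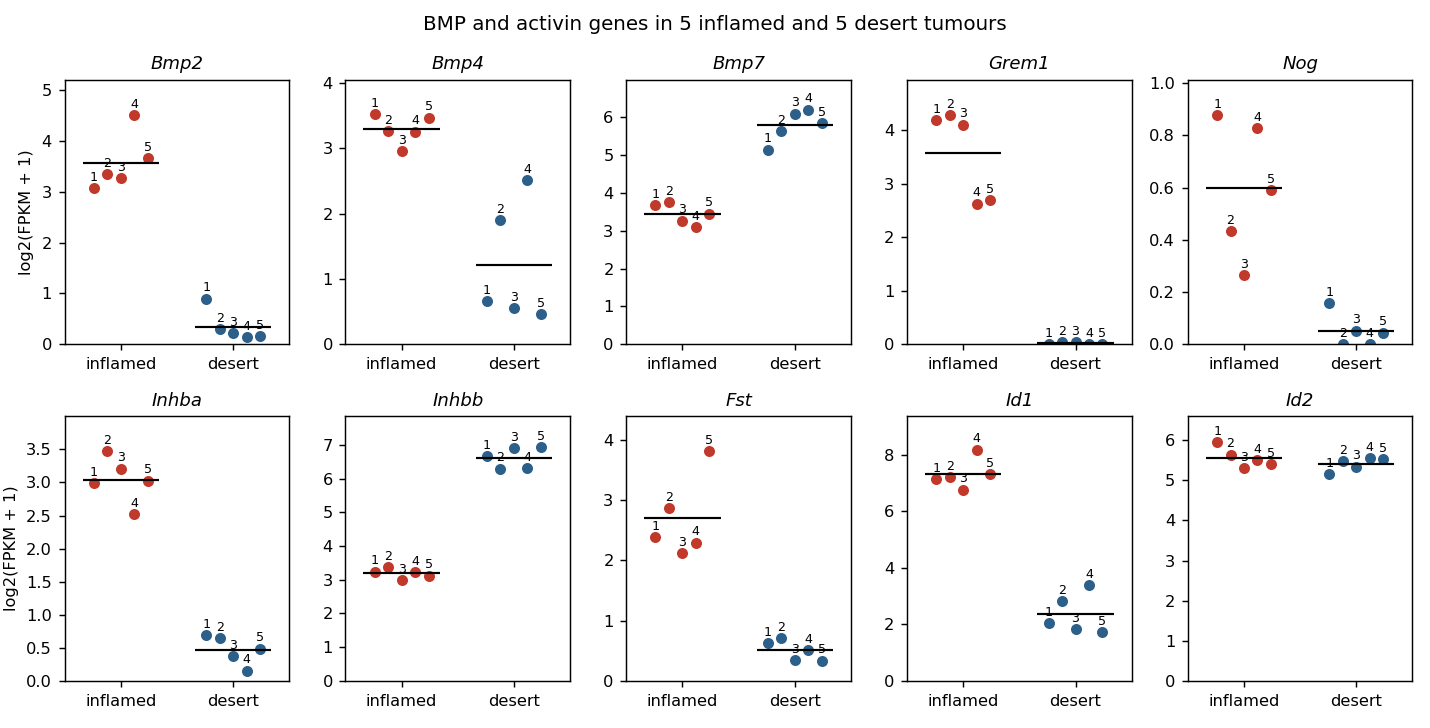
Level of each of the 10 genes as log2(FPKM + 1) in inflamed (left) and desert (right) tumours; numbered points are tumours 1 to 5 and bars are group means. Bmp7 and Inhbb lie higher in desert tumours, Id2 overlaps between the types, and the other 7 genes lie higher in inflamed tumours, Nog at levels under 1 FPKM.

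The makeup of the 3 BMP messages therefore differed, which follows from the levels above and is given as a description. In inflamed tumours Bmp7 was 19.9 to 41.3% of their summed FPKM, Bmp2 24.8 to 57.5% and Bmp4 22.6 to 35.4%. In desert tumours Bmp7 was 93.8 to 99.1% of the sum and Bmp2 at most 2.41%. The sum itself was 24.1 to 37.9 FPKM among inflamed and 35.8 to 77.3 FPKM among desert tumours, and the groups overlapped in it, inflamed tumour 4 lying above desert tumour 1.

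Of the BMP antagonists, Grem1 (ENSMUSG00000074934, chromosome 2, 113576509 to 113588991), which encodes Gremlin 1, had 17.2, 18.5, 16.2, 5.18 and 5.49 FPKM in inflamed tumours 1 to 5. In desert tumours 1 to 5 it was at 0, 0.0284, 0.0300, 0 and 0 FPKM, which is 4 reads in the 5 libraries together, against 4426 reads in the 5 inflamed libraries. Inflamed tumours 4 and 5 had about the same level, well under that of the other 3. The log2 difference was 3.56 (SE 0.33, limma adjusted p = 5.16e-06); with so few desert reads it depended on the pseudocount (9.29 with 0.01), so no fold is given.

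The summed endothelial and fibroblast markers were lowest in the inflamed tumours with the lowest Grem1. The 6 endothelial markers summed to 38.2, 42.9, 33.98, 15.5 and 22.5 FPKM in inflamed tumours 1 to 5, the same order of tumours as for Grem1, and to 13.5 to 18.9 FPKM in desert tumours. The 7 fibroblast markers summed to 290.5, 196, 201, 107 and 153 FPKM in inflamed tumours 1 to 5, so tumours 4 and 5 were lowest in these sums too. Some single markers did not follow the sums. Lum was highest in inflamed tumour 4 (5.18 FPKM) and lowest in tumour 2 (1.67 FPKM). Dpt was higher in tumour 4 (16.35 FPKM) than in tumour 2 (12.9 FPKM). Among endothelial markers, Tek was higher in tumour 5 (3.84 FPKM) than in tumour 1 (3.25 FPKM). The fibroblast sum was 59.8, 114, 108, 58.3 and 126 FPKM in desert tumours 1 to 5. Desert tumour 5 had a larger fibroblast sum than inflamed tumour 4, with Grem1 at 0 in the one and at 5.18 FPKM in the other. Single markers differed from the sum. Dcn and Dpt were higher in inflamed tumours without overlap, with means of 36.6 against 6.79 FPKM and 15.4 against 0.934 FPKM. Pdgfra and Lum overlapped, with the higher mean in desert tumours (14.6 against 10.45 FPKM and 4.62 against 3.47 FPKM). Of the fibroblast markers 3 of 7 were called higher in inflamed tumours and 0 lower. The 6 smooth muscle markers, 4 of the 5 tested called higher, summed to 71.5 to 795 FPKM among inflamed and 7.35 to 40.3 FPKM among desert tumours, and inflamed tumours 4 and 5 were the highest and the lowest of their group. The part of these cell types in the Grem1 result was not tested.

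Nog (ENSMUSG00000048616, chromosome 11, 89191464 to 89193158), which encodes noggin, was low throughout, with 0.837, 0.350, 0.202, 0.775 and 0.505 FPKM in inflamed tumours 1 to 5 and 0.115, 0, 0.0367, 0 and 0.0311 FPKM in desert tumours 1 to 5. That is 75 reads in the inflamed and 5 in the desert libraries. The groups did not overlap, and without the filter the log2 difference was 0.55 (SE 0.12, limma adjusted p = 0.00392). Set against the summed BMP ligands, Grem1 and Nog together were 0.157 to 0.684 times as abundant in inflamed tumours and at most 0.00322 times in desert tumours. This ratio covers Grem1 and Nog only. The other genes listed here as secreted antagonists, Crim1 and Twsg1 among them, were then added, without Fstl1, Fstl3 and Vwc2. With them the sum was 61.0 to 87.1 FPKM in inflamed tumours, where Twsg1 had a mean of 29.4 FPKM. That sum was 73.4 to 101.2 FPKM in desert tumours, where Twsg1 and Chrdl1 had means of 43.7 and 32.5 FPKM. The groups overlapped in it.

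The activin subunits split as the BMP ligands did. Inhba (ENSMUSG00000041324, chromosome 13, 16186436 to 16206206), the subunit of activin A, had 6.92, 10.1, 8.25, 4.75 and 7.16 FPKM in inflamed tumours 1 to 5 and 0.612, 0.562, 0.292, 0.115 and 0.404 FPKM in desert tumours 1 to 5. No desert tumour reached 1 FPKM. The mean was 7.43 ± 1.95 FPKM among inflamed and 0.397 ± 0.202 FPKM among desert tumours (SD, n = 5 each), 18.7 times higher in inflamed tumours, with a log2 difference of 2.57 (SE 0.17, limma adjusted p = 4.28e-07; 4.35 with a pseudocount of 0.01).

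Inhbb (ENSMUSG00000037035, chromosome 1, 119343195 to 119349978), the subunit of activin B, had 8.47, 9.43, 6.90, 8.31 and 7.72 FPKM in inflamed tumours 1 to 5 and 100.2, 77.6, 119, 79.0 and 121 FPKM in desert tumours 1 to 5. It was the most abundant of the 10 members in desert tumours, by group mean, and the least variable in inflamed tumours (coefficient of variation 11.5%, where the median was 12.9% over genes with a group mean of at least 5 FPKM). The mean was 8.17 ± 0.937 FPKM among inflamed and 99.5 ± 21.0 FPKM among desert tumours (SD, n = 5 each), 12.2 times higher in desert tumours, with a log2 difference of -3.43 (SE 0.14, limma adjusted p = 1.32e-08).

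Inhba was 36.4 to 54.5% of the summed subunits in inflamed tumours and at most 0.719% in desert tumours. The sum was 13.1 to 19.5 FPKM among inflamed and 78.2 to 122 FPKM among desert tumours, without overlap. Inha, which encodes the alpha subunit that turns an activin subunit into an inhibin, was at 2.37 ± 1.06 FPKM among inflamed and 1.68 ± 0.448 FPKM among desert tumours (SD, n = 5 each; limma adjusted p = 0.199).

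**Figure D2:**
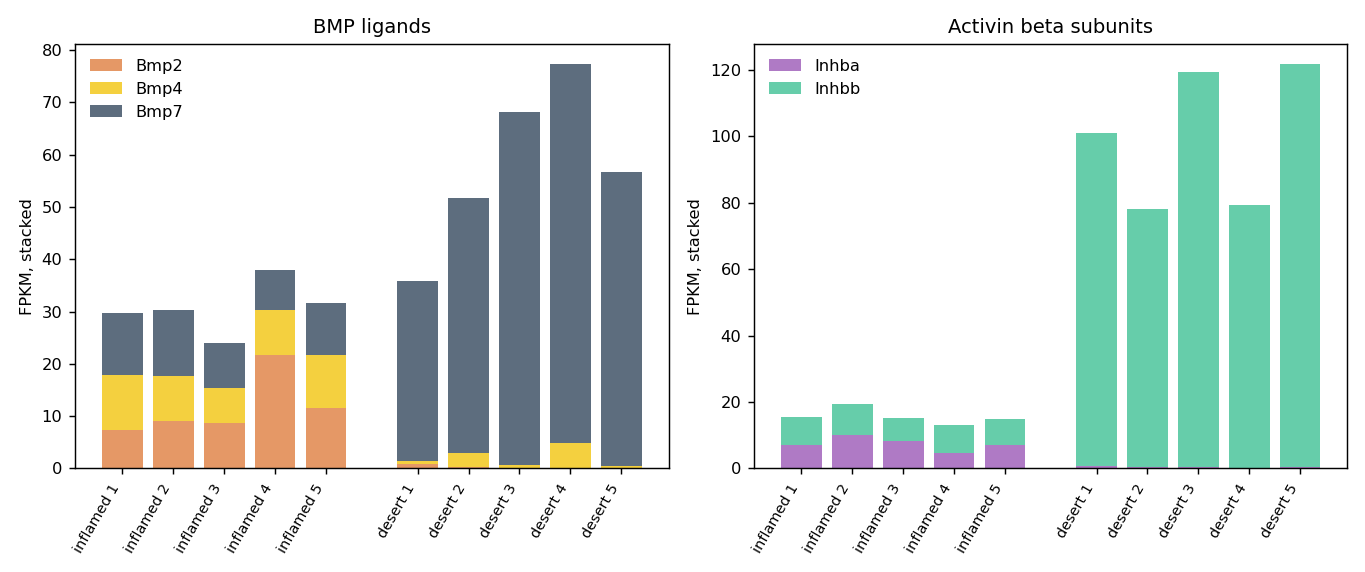
Stacked FPKM of Bmp2, Bmp4 and Bmp7 (left panel) and of Inhba and Inhbb (right panel), 1 bar per tumour, inflamed tumours left of desert tumours in each panel. Bmp7 and Inhbb fill nearly the whole bar in desert tumours, whereas inflamed tumours hold all of the ligand genes in each panel.

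Fst (ENSMUSG00000021765, chromosome 13, 114588826 to 114595487), which encodes the activin-binding protein follistatin, had 4.22, 6.28, 3.35, 3.91 and 13.1 FPKM in inflamed tumours 1 to 5, against 0.540, 0.641, 0.271, 0.424 and 0.264 FPKM in desert tumours 1 to 5. Inflamed tumour 5 stood above the rest of its group, and every inflamed tumour lay above the desert tumours. The mean was 6.17 ± 4.02 FPKM among inflamed and 0.428 ± 0.166 FPKM among desert tumours (SD, n = 5 each), 14.4 times higher in inflamed tumours. The log2 difference was 2.19 (SE 0.28, limma adjusted p = 5.47e-05), 1.91 without inflamed tumour 5 and 3.71 with a pseudocount of 0.01. The activin subunits together were 1.14 to 4.52 times as abundant as Fst in inflamed tumours and 122 to 460.5 times in desert tumours, given as a description of the levels above. The antagonist was thus low where the subunit sum was high.

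Id1 (ENSMUSG00000042745, chromosome 2, 152578171 to 152579330), a helix-loop-helix protein gene that lacks a DNA-binding region and blocks other factors of that class, had the largest difference of the tested members on the log2(FPKM + 1) scale. Grem1 passed it after rescaling to TPM (5.14 for Grem1 and 4.91 for Id1), with both smaller pseudocounts (6.62 and 5.26 with 0.1, 9.29 and 5.30 with 0.01) and with voom on recovered reads (9.62 and 5.21). Bmp2 passed it with the pseudocount of 0.01 (5.62) and with voom (5.59). The level of Id1 was 141, 147, 108.5, 291 and 158 FPKM in inflamed tumours 1 to 5 and 3.15, 6.04, 2.57, 9.52 and 2.32 FPKM in desert tumours 1 to 5. The lowest inflamed tumour was 11.4 times the highest desert tumour. The mean was 169 ± 70.4 FPKM among inflamed and 4.72 ± 3.07 FPKM among desert tumours (SD, n = 5 each), 35.8 times higher in inflamed tumours, with a log2 difference of 4.96 (SE 0.35, limma adjusted p = 5.86e-07).

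Id2 (ENSMUSG00000020644, chromosome 12, 25143798 to 25147139), of the same family, had 60.9, 48.9, 38.6, 44.6 and 41.2 FPKM in inflamed tumours 1 to 5 and 34.6, 43.4, 39.5, 45.9 and 45.1 FPKM in desert tumours 1 to 5. The groups overlapped almost throughout. The log2 difference was 0.15 with a 95% interval of -0.13 to 0.44 (limma adjusted p = 0.329), and it was -0.14 after rescaling to TPM, which moved the median of all tested genes to -0.28. Id1 was 2.32 to 6.52 times as abundant as Id2 in inflamed tumours and 0.0514 to 0.207 times in desert tumours.

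**Figure D3:**
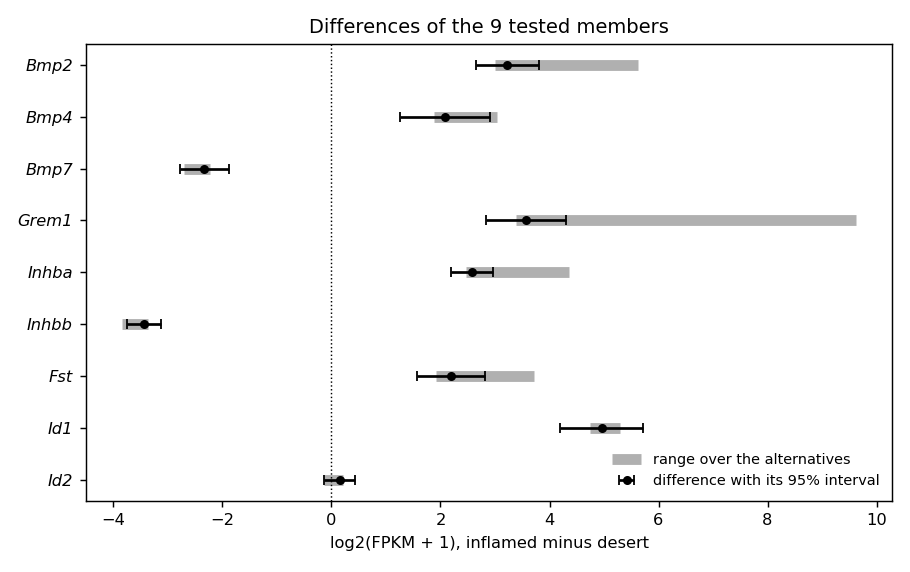
Difference of the 9 tested genes on the log2(FPKM + 1) scale, inflamed minus desert; points with bars are the estimates with 95% intervals and grey bands the range over the alternative settings. Bmp7 and Inhbb lie below 0, the Id2 interval spans 0, and the wide bands of Grem1 and Bmp2 reach 9.62 and 5.62.

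The other Id genes did not move as 1 block. Id3 had 108, 92.1, 67.4, 146 and 94.3 FPKM in inflamed tumours 1 to 5 and desert tumours 1 to 5 had 3.53, 13.7, 3.92, 14.4 and 2.47 FPKM of it (log2 difference 3.82, SE 0.42, limma adjusted p = 1.89e-05). Id4 was at 3.37 ± 0.779 FPKM among inflamed and 27.8 ± 10.4 FPKM among desert tumours (SD, n = 5 each; log2 difference -2.66, limma adjusted p = 2.48e-06). Id1 and Id3 together thus led the family in inflamed tumours, where Id1 alone was 45.0 to 59.9% of the summed Id1 to Id4 levels, and Id2 was 44.0 to 55.9% in desert tumours. Id2 led the family in all desert tumours but tumour 3, where Id4 led with 48.7%. Of the list of 6 other BMP target genes, 4 were tested, 2 rose and 1 fell. Besides Id3 the rise was in Atoh8, a transcription factor gene, at 4.03 ± 1.32 FPKM among inflamed and 0.213 ± 0.102 FPKM among desert tumours (SD, n = 5 each; limma adjusted p = 1.69e-06). Msx1, named after its values were seen, was at 5.71 ± 1.68 FPKM among inflamed and 4.86 ± 2.79 FPKM among desert tumours (limma adjusted p = 0.453).

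Within the desert group, Bmp4, Id1 and Id3 had the same 2 tumours at the top. Tumour 4 led with 4.70, 9.52 and 14.4 FPKM, and tumour 2 followed with 2.75, 6.04 and 13.7 FPKM. The other 3 desert tumours did not exceed 0.580 FPKM for Bmp4, 3.15 FPKM for Id1 and 3.92 FPKM for Id3. Bmp2 did not share this order, being lowest in tumour 4 and highest in tumour 1, nor did Id2. Atoh8 was highest in tumour 2 (0.329 FPKM) but lowest in tumour 4 (0.0839 FPKM). Id4 was lowest in tumour 2 (16.2 FPKM). Smad6 was highest in tumour 4 (4.20 FPKM), with tumour 1 (3.46 FPKM) above tumour 2 (3.32 FPKM). The summed endothelial markers were slightly higher in the same 2 tumours, with 16.4 and 18.9 FPKM in desert tumours 4 and 2 and 13.5 to 15.5 FPKM in the other 3. Single markers did not all follow. Cdh5, the cadherin of endothelial junctions, stood at 6.59 and 6.96 FPKM in tumours 4 and 2, against 4.18 to 4.70 FPKM in the other 3. Tek, the angiopoietin receptor gene, was lowest in those 2, at 0.748 and 0.649 FPKM, against 0.963 to 1.51 FPKM, and Vwf was lowest in tumour 4, at 2.18 FPKM. Their part in this pattern was not tested, and with 5 tumours a group no correlation is given.

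Within the inflamed group, tumour 4 had the highest Bmp2, Id1, Id3 and Atoh8 (6.21 FPKM, with 2.99 to 4.28 FPKM in the other 4). It was also the inflamed tumour with the largest sum of gastric epithelial markers (42130 FPKM) and of smooth muscle markers (795 FPKM). That gastric sum was mostly Gkn2 (18300 FPKM) and Gkn1 (11750 FPKM), and Tff1, Tff2 and Muc5ac were also highest in tumour 4. The other gastric markers were not. Pgc (6737 FPKM, against 1350 FPKM in tumour 4), Atp4a and Atp4b were highest in tumour 3, and Muc6 in tumour 2 (249 FPKM, against 175 FPKM). The leukocyte sum of tumour 4 was the smallest (309 FPKM, with 610.4 to 1584 FPKM in the others). That leukocyte sum was mostly Cd74 (302 FPKM in tumour 4), and Ptprc was lowest there too (1.17 FPKM). The endothelial sum (15.5 FPKM) and fibroblast sum (107 FPKM) of tumour 4 were also the smallest of the group. Without tumour 4 the log2 differences were 2.99 for Bmp2 and 4.75 for Id1.

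**Figure D4:**
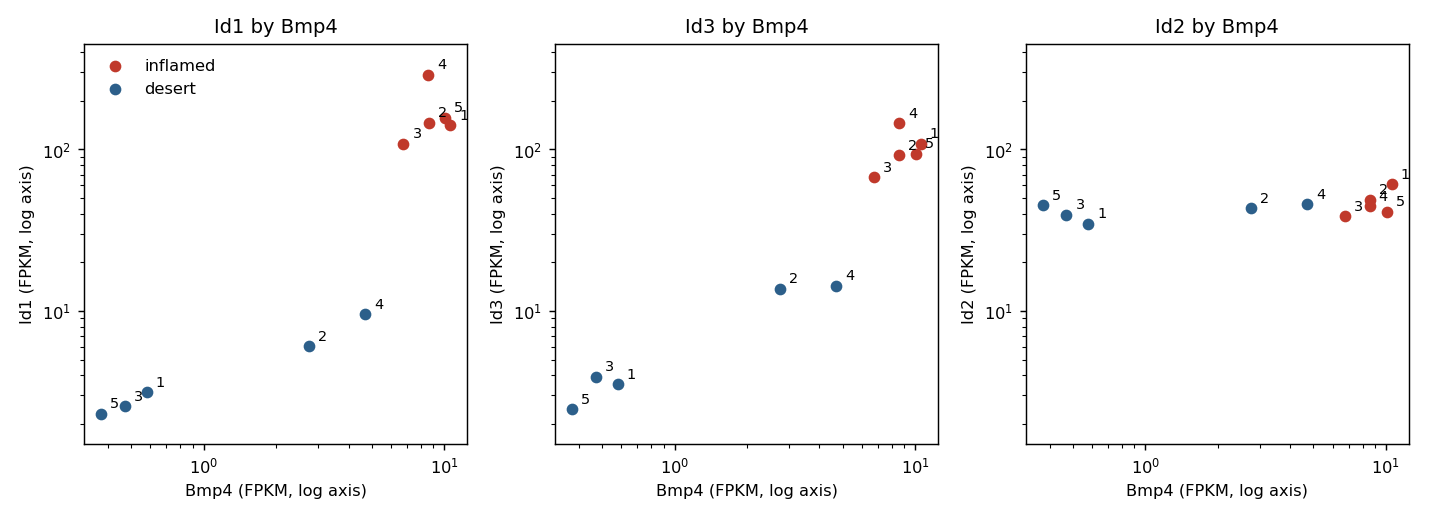
Id1, Id3 and Id2 (vertical axes) against Bmp4 (horizontal axes), both in FPKM on log axes; numbered points are tumours 1 to 5 of each type. Desert tumours 2 and 4 lie between the other desert tumours and the inflamed tumours for Id1 and Id3, whereas Id2 stays between 34.6 and 60.9 FPKM everywhere.

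By group mean, the order of levels in inflamed tumours was Id1, Id2, Grem1, Bmp2, Bmp7, Bmp4, Inhbb, Inhba, Fst and Nog. There the ranges of neighbours overlapped throughout from Grem1 to Fst, while Id1, Id2 and Nog each stood clear of the genes next to them. In desert tumours the order was Inhbb, Bmp7, Id2, Id1, Bmp4, Fst, Inhba, Bmp2, Nog and Grem1. Inhbb stood clear of Bmp7 and Id2 of Id1 there, and the other neighbours overlapped.

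The rest of the pathway was read over 8 lists of 65 genes, of which 41 were tested, 15 higher and 18 lower in inflamed tumours and 8 not called. That is 80.5% called, against 62.2% of all tested genes, of which 31.0% were higher and 31.2% lower. The counts of each list below stand against the same shares of all tested genes. The median log2 difference of the 41 was -0.10, and that of all tested genes -0.01. After rescaling to TPM, 10 were called higher and 20 lower. Of 12 other ligands of the BMP and growth differentiation factor (GDF) class only 3 were tested. Bmp5 rose, with 2.67 ± 0.774 FPKM among inflamed and 0.00617 ± 0.0138 FPKM among desert tumours (limma adjusted p = 1.68e-06), and a single desert tumour was above 0. Bmp6 fell to 2.40 ± 1.003 FPKM in inflamed tumours, against 9.74 ± 2.12 FPKM in desert tumours (limma adjusted p = 4.91e-05). Gdf11, a ligand that signals through activin receptors, fell to 1.02 ± 0.158 FPKM in inflamed tumours, against 7.86 ± 0.572 FPKM in desert tumours (limma adjusted p = 1.28e-08; SD, n = 5 each).

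Receptor genes differed in both directions. Of 9 BMP receptor and co-receptor genes 7 were tested, 4 higher and 2 lower in inflamed tumours. All 4 higher calls were lost after rescaling to TPM. Bmpr1a, the most abundant type I receptor gene of the list, was at 24.3 ± 2.86 FPKM among inflamed and 19.1 ± 2.26 FPKM among desert tumours (log2 difference 0.33, limma adjusted p = 0.0184), with a difference of 0.05 after rescaling to TPM (adjusted p = 0.719). Eng and Acvrl1, receptor genes typical of endothelium, had log2 differences of 0.90 and 0.69 (limma adjusted p = 0.00557 and 0.0259). With TPM their adjusted p was 0.0519 and 0.137, and the Acvrl1 call was also lost when inflamed tumour 1, 2 or 3, or desert tumour 3 or 4, was left out (adjusted p = 0.0573 to 0.0628). The endothelial markers, 3 of 6 called higher and 0 lower, summed to 15.5 to 42.9 FPKM among inflamed and 13.5 to 18.9 FPKM among desert tumours, and their part in these 2 results was not tested. Acvr1 and Bmpr2, named after their values were seen, encode a type I and a type II receptor. Acvr1 had a log2 difference of 0.40 (limma adjusted p = 0.000368; adjusted p = 0.18 with TPM). Bmpr2 had one of -0.41 (limma adjusted p = 0.0366), a call lost without the filter (adjusted p = 0.0666) and when inflamed tumour 3, 4 or 5, or any of desert tumours 2 to 4, was left out (adjusted p = 0.0504 to 0.0853). Rgma, a BMP co-receptor gene, had a log2 difference of -1.52 (limma adjusted p = 2.21e-05).

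Of 6 activin receptor and co-receptor genes 4 were tested, 1 higher and 2 lower. Acvr1b, the activin type I receptor gene, was at 21.3 ± 3.14 FPKM among inflamed and 25.7 ± 0.482 FPKM among desert tumours (log2 difference -0.27, limma adjusted p = 0.0268). This call was lost when inflamed tumour 1, 2 or 5, or desert tumour 2, was left out (adjusted p = 0.0561 to 0.0696). Acvr2a, a type II receptor gene, was at 5.61 ± 0.280 FPKM among inflamed and 4.30 ± 0.774 FPKM among desert tumours (limma adjusted p = 0.016), and not called with TPM (adjusted p = 0.578). Tgfbr3, a co-receptor gene for inhibin and transforming growth factor beta, had a log2 difference of -1.02 (limma adjusted p = 0.00276).

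Of the 6 SMAD transducer genes 4 fell, 1 rose and Smad1, named after its values were seen, was not called (limma adjusted p = 0.973). Smad4, the shared partner of both branches, was at 25.9 ± 2.16 FPKM among inflamed and 45.9 ± 2.10 FPKM among desert tumours (limma adjusted p = 7.16e-06), and Smad2, a transducer of activin, at 6.71 ± 0.266 FPKM among inflamed and 10.4 ± 0.881 FPKM among desert tumours (limma adjusted p = 6.42e-05). Smad9, of the BMP branch, was at 1.13 ± 0.358 FPKM among inflamed and 0.0152 ± 0.00636 FPKM among desert tumours (limma adjusted p = 2.93e-05; SD, n = 5 each).

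All 6 intracellular and membrane inhibitors were called, 2 higher and 4 lower. Smad6, an inhibitory SMAD gene that BMP signalling induces, had 13.7, 11.4, 10.01, 19.8 and 12.1 FPKM in inflamed tumours 1 to 5 while desert tumours 1 to 5 had 3.46, 3.32, 3.28, 4.20 and 2.80 FPKM of it (log2 difference 1.68, SE 0.16, limma adjusted p = 5.62e-06). Smad7, the inhibitory SMAD gene that acts on both branches, ran the other way, with 12.7, 12.7, 11.5, 19.6 and 14.8 FPKM in inflamed tumours while desert tumours had 25.7, 25.4, 37.6, 34.6 and 44.4 FPKM of it (log2 difference -1.17, SE 0.18, limma adjusted p = 0.000195). Neither gene overlapped between the groups. Bambi, a decoy receptor gene, had a log2 difference of -1.05 (limma adjusted p = 1.58e-05), and Fkbp1a, which encodes a binding protein of type I receptors, one of -0.42 (limma adjusted p = 0.00349).

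Of 15 other secreted antagonists 10 were tested, 4 higher and 3 lower. Nbl1, of the same protein family as Grem1, was at 12.2 ± 4.55 FPKM among inflamed and 4.25 ± 1.82 FPKM among desert tumours (limma adjusted p = 0.00165). Chrdl1, a chordin-like BMP antagonist gene, fell to 3.94 ± 2.55 FPKM in inflamed tumours, against 32.5 ± 6.59 FPKM in desert tumours (limma adjusted p = 9.16e-06; SD, n = 5 each). Fstl1, a follistatin-like gene, was at 31.1 ± 10.2 FPKM among inflamed and 49.0 ± 25.8 FPKM among desert tumours (limma adjusted p = 0.129), and was called lower after rescaling to TPM (adjusted p = 0.0342).

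**Figure D5:**
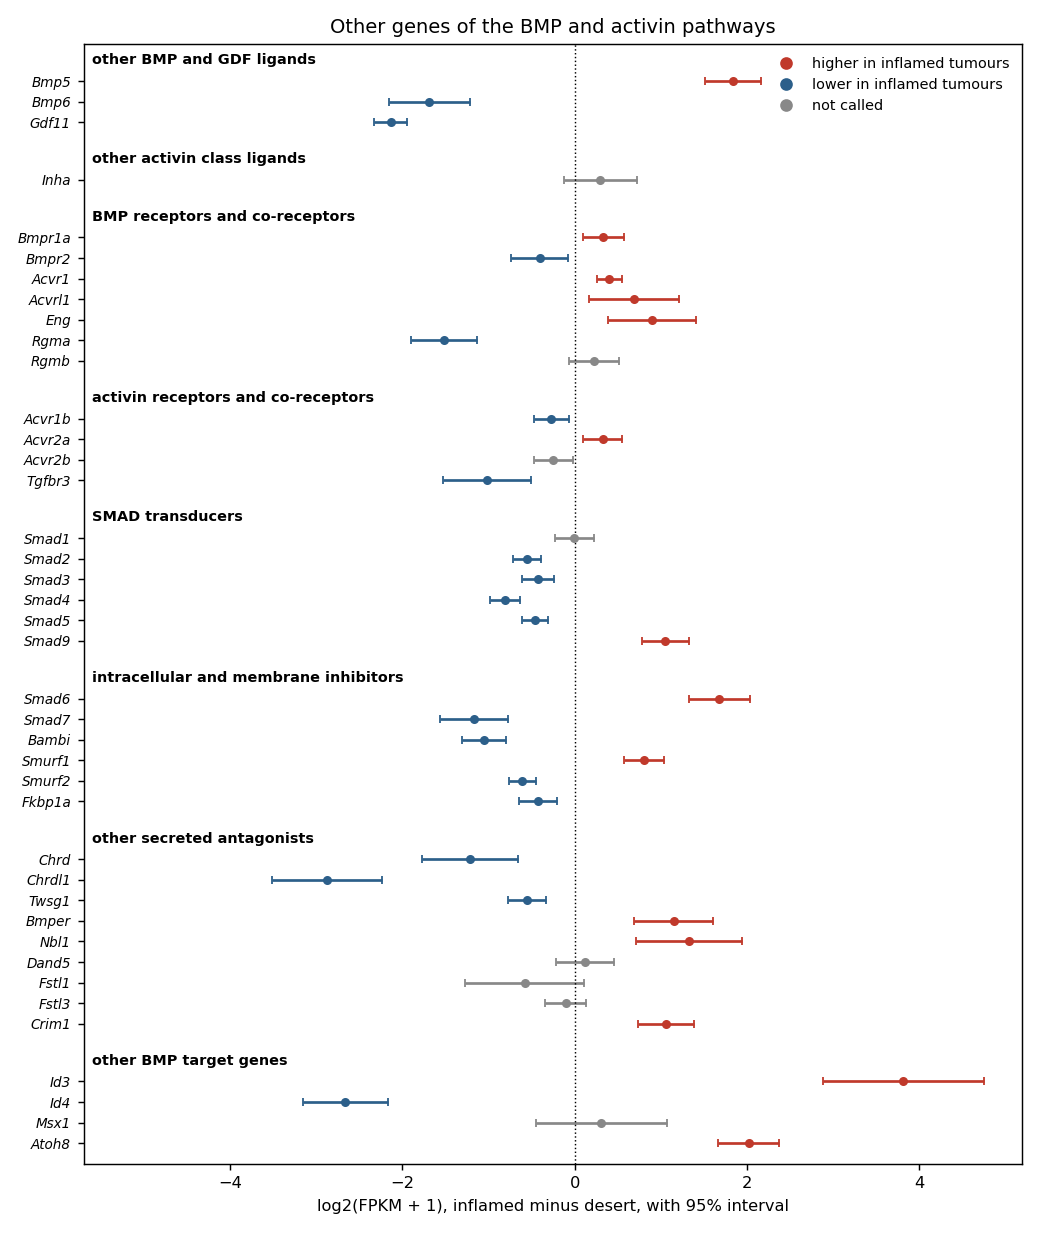
Difference of tested pathway genes outside the 10 members, by list, on the log2(FPKM + 1) scale, inflamed minus desert, with 95% intervals; red is called higher, blue called lower and grey not called in inflamed tumours. Points to both sides of 0 occur among the ligands, receptors, SMADs, inhibitors, antagonists and targets.

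The genes of most similar profile were sought for the 3 members of largest difference, as the smallest root mean square difference in log2(FPKM + 1) over the 10 libraries after each gene's mean was removed, among 14164 genes. The nearest reported were, for Id1, Ces2g (0.46), Ern2 (0.50) and Gata4 (0.50), for Grem1 Igkv10-94 (0.28), Prss22 (0.30) and Atp7b (0.31), and for Inhbb Mgat5b (0.18) and Sall3 (0.20). The measure is dominated by the difference between the 2 tumour types.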

How the data were processed

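Per the labels, total RNA of 10 mouse gastric tumours was extracted with TRIzol and sequenced; the protocol text speaks of 6 samples, and all 10 deposited were used. The authors deposited FPKM values, a column for each tumour, with the gene length used here to recover reads: FPKM times length gave whole multiples of 1 step per library (100% of values within 0.01 of a whole number). The submitters' processing notes name mm10; the aligner, counter and annotation are not given in the sources used here. All 10 members had the span length of GENCODE M21 (GRCm38) but 0 the same start, so positions are as deposited, with no build named.

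Each gene with a mean of at least 0.5 FPKM was compared on log2(FPKM + 1) across all genes with limma 3.58.1 in R 4.3.3 (the data.table package, version 1.17.8), a moderated two-sided test with trend and robust moderation and tumour type as the only term, with Benjamini-Hochberg adjustment over 16750 genes. This fit was tested on simulated counts in which few genes changed, in balanced directions. In these tumours 62.2% of tested genes were called, a setting that the simulation did not cover. Differences are inflamed minus desert. Pathway genes were named by a rule: in each list the 3 called genes of largest difference and the gene of highest mean; genes that this rule names but the text leaves out are not reported here, though they stay in the counts. The members and lists were chosen with earlier results of these data known. Alternatives were pseudocounts of 0.1 and 0.01, no filter, a mean of at least 5 FPKM, TPM, median-of-ratios and quantile scaling, limma without trend and robust moderation, voom on recovered reads (mean of at least 10), the tumour number as a replicate block, and the fit without each library.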

Additional observations from a re-analysis of the deposited data

Results flagged for a closer look

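In 5 of 70 groups of 5 tumours, over the 35 genes checked, 1 tumour stood apart from the rest by more than Dixon's limit of 0.71 of the group's range; chance flags about 1 group in 20. Id1 measured 291 FPKM in inflamed tumour 4 with 108.5 to 158 FPKM in the other inflamed tumours. Bmp2 was at 0.862 FPKM in desert tumour 1 and at 0.104 to 0.232 FPKM in the other desert tumours. Inha measured 4.23 FPKM in inflamed tumour 1 with 1.74 to 2.23 FPKM in the other inflamed tumours. Fstl1 was at 94.2 FPKM in desert tumour 1 and at 28.4 to 41.4 FPKM in the other desert tumours. Bmp5 was at 0.0309 FPKM in desert tumour 3 and at 0 in the other desert tumours.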

How the results depend on the processing

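Of 179 values of the 10 members under 20 alternatives, 177 kept their direction and their side of the threshold. The Id2 difference was -0.14 after rescaling to TPM, 0.14 above the median of all genes there, and the cause was not tested. Nog was called without the filter, which admits it. The member calls stayed at 6 higher and 2 lower, except 7 higher without the filter and 4 higher with a mean of at least 5 FPKM, which leaves out Inhba and Fst. That filter tests fewer genes and gave 2784 genes higher and 3070 lower over all genes, and 8 pathway genes higher.

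The labels number the tumours 1 to 5 in both groups, but same-numbered tumours did not deviate together (correlations of -0.0737 to 0.0763, and 2 of 10 tumours correlated best with their own number). With the replicate block, 6 members were higher and 2 lower, 15 pathway genes higher and 17 lower, and 4958 genes higher and 4967 lower over all genes; Acvr1b and Bmpr2 were not called (adjusted p = 0.0514 and 0.0619) and Fstl1 was called lower (adjusted p = 0.0389). Leaving out each library gave 6 members higher and 2 lower each time. Depth limits the desert values of Nog and Grem1, which rest on 5 and 4 reads. It also limits those of Bmp5 and Smad9, which rest on 2 and 7 reads. Bmp2 had 7 to 47 reads in each desert library.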
